A study of Mus musculus with 4 samples.

Results

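The Gimap genes encode the GTPases of the immunity-associated protein family, guanine-nucleotide-binding proteins of lymphocytes. Their 8 mouse members, Gimap1 and Gimap3 to Gimap9, were followed here in preproB cells that had lost an enhancer of Cebpa and in control preproB cells. They were chosen by name: every probe whose gene name on the array was a Gimap gene was taken. This gave 10 probes for 8 genes, of 39429 probes for 31660 named genes in all. Gimap4 had 3 probes, and each other member had 1.

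Gimap proteins sit on intracellular membranes, among them those of lysosomes, mitochondria and the endoplasmic reticulum, and are known for their part in keeping resting lymphocytes alive. In mice and rats, loss of Gimap5 depletes peripheral T cells, and in mice loss of Gimap1 depletes mature T and B cells. The genes are expressed across T, B and NK cells, so their RNA can come from several lymphoid lineages in one sorted population.

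RNA from bone marrow of C57BL/6 mice was measured on 1-colour arrays, with 2 samples per group. The EnhDel samples came from mice with both copies of the +37 kb Cebpa enhancer floxed and with Mx1-Cre, a recombinase driven by an interferon-inducible promoter that is not restricted to blood cells. The control samples came from mice with the same floxed enhancer and no Cre. Both groups had been given 3 doses of pIpC, an RNA mimic that induces interferon, and marrow was taken 5 weeks later. The sort took lineage-negative cells carrying B220 and CD43 and lacking BP1 and CD24. Both EnhDel samples were labelled male and 24 weeks old, while control 1 was labelled female and 26 weeks old and control 2 male and 24 weeks old. Loss of the enhancer and presence of Cre cannot be told apart in this design, and the extent of deletion was not measured on the arrays. The samples are named as replicates, and a p-value here weighs a difference against the spread of these 4 samples alone, which may be technical. In limma that spread is drawn in part from all tested genes. An SE below is therefore not the spread of a single gene's replicates alone.

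The labels were checked first. Cebpa, which the enhancer serves and which encodes the myeloid factor C/EBPα, had scaled signals of 135 and 286 on the EnhDel arrays, against 1294 and 845 on the control arrays. The groups did not overlap, and the difference was -2.41 ± 0.44 on the log2 scale (SE, limma adjusted p = 0.238). The sex-linked genes went against 2 of the 4 sex labels, 1 of them only in part. Xist, the female-specific RNA of the inactive X chromosome, was well above background on EnhDel 2 alone, with a scaled signal of 596, although that sample was labelled male. The Y-linked Ddx3y gave 3914 on EnhDel 1 and 1557 on EnhDel 2, against 3172 on control 1 and 3166 on control 2, so the control labelled female carried Y-linked RNA. EnhDel 2 held both Xist and Y-linked RNA, for a reason not tested. The Y-linked Eif2s3y gave 6005 on EnhDel 1 and 2629 on EnhDel 2, against 5006 on control 1 and 6234 on control 2. Kdm5d and Uty, also Y-linked, were likewise lowest on EnhDel 2. The libraries labelled EnhDel 2 and control 1 are therefore also left out in turn where Gimap values are given below. One slide carried all 4 arrays, and 1 scan covered them. Between 59.6% and 64.9% of probes were well above background on each array. Of the genes of the sorted surface proteins, RNA of Ptprc (for B220) and Spn (for CD43) was well above background. RNA of Enpep (for BP1) was not on any array, and that of Cd24a was on all 4. These signals are RNA of each gene and do not measure the surface proteins that were sorted.

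The array read each Gimap gene through oligonucleotides of 60 bases. The probes that carry the values below are shown for Gimap3, which had the largest difference in the reported fit, for its neighbour Gimap5, for Gimap7, whose control arrays lay farthest apart on the log2 scale, and for the 3 probes of Gimap4. They are written 5′ to 3′, whole for Gimap7 and the first Gimap4 probe, and as the first 30 of the 60 bases for the others; positions are those of the array's annotation (mouse build mm9).
Gimap3, chr6:48714463-48714522, minus strand: caatgcgtgctttaaaactcggcgtttcag
Gimap5, chr6:48703501-48703560, plus strand: attaatttcactctcatttgattcccatgg
Gimap7, chr6:48674271-48674330, plus strand: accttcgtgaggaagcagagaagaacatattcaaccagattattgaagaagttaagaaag
Gimap4, chr6:48640752-48640811, plus strand: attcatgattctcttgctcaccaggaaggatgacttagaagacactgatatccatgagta
Gimap4, chr6:48641312-48641371, plus strand: gactagaccttatttctattttctgcattt
Gimap4, chr6:48641817-48641876, plus strand: agatctcacaagtcaaataatccaggttga
The 10 Gimap probes had little sequence in common. Over their 45 pairs, the longest shared run was 9 bases and the most matching bases in any ungapped alignment was 30. No probe of another gene on the array shared a run of 20 bases with a Gimap probe. The RefSeq table gives Gimap5 as an older name of Gimap3, so the Gimap3 probe is identified here by its transcript as well as by its symbol.

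All 8 Gimap genes were well above background on all 4 arrays, so every member was tested and none depended on 1 group for its detection. In limma, 0 of 8 members fell under an adjusted p of 0.05, beside 0% of the 19394 genes tested. At an unadjusted p under 0.05, 1 of 8 members was higher in EnhDel cells, Gimap3, and none was lower, beside 7.23% of all tested genes higher, 3.96% lower and 11.2% in either direction. In the reported fit no member differed by 2-fold or more (Gimap7 did under 1 alternative, given below), as 3.35% of all tested genes did upward and 2.98% downward. Differences were positive for 6 of 8 members and for 59.8% of all tested genes. The EnhDel arrays lay wholly above the control arrays for 6 of 8 members and wholly below for 1, beside 28.6% and 15.5% of all tested genes (44.1% in either direction). The median difference over the family was 0.24, beside 0.07 over all tested genes, and 5 of 8 members lay above that all-gene median. The spread between replicate arrays was 0.10 (SD of the family's median signal on the log2 scale). Summed over the 8 genes, the scaled signal was 15667 and 15202 on the EnhDel arrays, against 15320 and 14861 on the control arrays, so the sums of the groups overlapped. Gimap6 and Gimap1, read by the brightest probes, made up most of each sum. Without EnhDel 2 the family's median difference was 0.21, and without control 1 it was 0.14. Scaling to the array median gave 0.034, beside -0.13 over all genes. Leaving out EnhDel 1 put 2938 of all genes past the adjusted p, none of them a Gimap gene, with 1 EnhDel array left; Gimap3 then had an adjusted p of 0.0502 in limma.

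**Figure D1:**
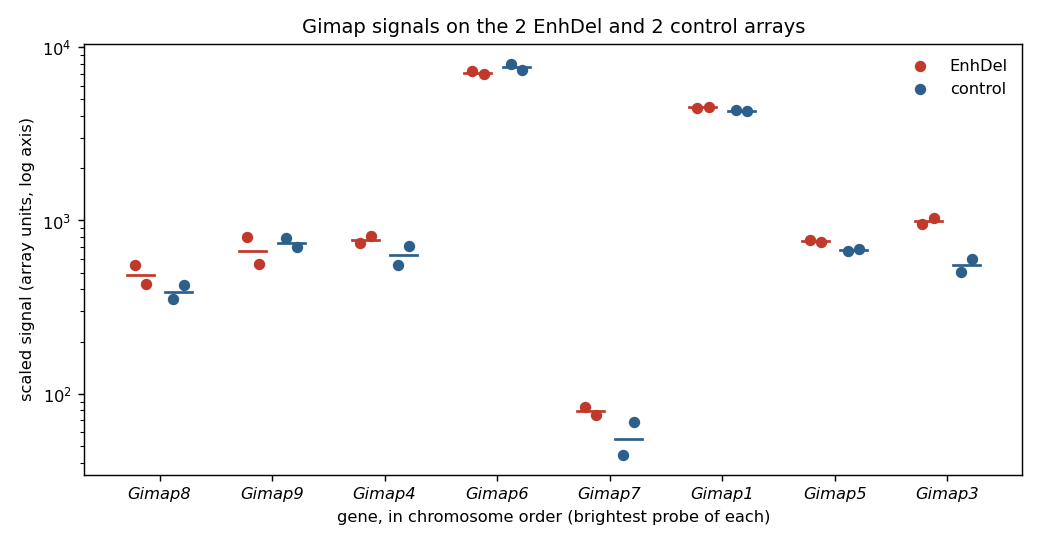
Scaled signal of each Gimap gene in array units (log axis) on the 2 EnhDel and the 2 control arrays; genes run in chromosome order, points are arrays and lines the mean of each group on the log scale. Gimap3 shows the widest gap between the groups, and the groups of Gimap6 and of Gimap1 nearly coincide; heights of different genes come from different probes and cannot be set against each other.

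Gimap3 and Gimap5 are the members best known from survival of T cells, where both proteins have been reported to bind Bcl2-type proteins in mice. Gimap3 had a scaled signal of 952 and 1036 on the EnhDel arrays, against 505 and 603 on the control arrays. Both EnhDel arrays were above both control arrays. The log2 difference was 0.85 ± 0.17 (SE, n = 2 per group, 95% interval 0.38 to 1.31, limma adjusted p = 0.274), a fold of 1.80. Its size exceeded that of 91.4% of all tested genes, but it did not pass the test over all genes. Without EnhDel 2 the difference was 0.79 (limma adjusted p = 0.193), and without control 1 it was 0.72 (limma adjusted p = 1.00).

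Gimap5 lies next to Gimap3 on the chromosome, on the opposite strand. Its scaled signal was 768 and 751 on the EnhDel arrays, against 666 and 683 on the control arrays. The groups did not overlap, yet the gap between them was small, at 0.17 ± 0.15 on the log2 scale (SE, limma adjusted p = 0.711). Scaled to the array median in place of the 75th percentile, the Gimap5 difference was -0.033, so its sign rests on the scaling. Without EnhDel 2 it was 0.19 and without control 1 it was 0.15.

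The gap between Gimap3 and the rest of the family was also taken within each array, where the scaling of the array drops out. Gimap3 minus the mean of the other 7 members was 0.01 and 0.26 on the EnhDel arrays, against -0.61 and -0.49 on the control arrays, on the log2 scale. Both EnhDel arrays lay above both control arrays, with a difference of 0.68. An exact two-sided permutation test gave p = 0.333, the smallest value that 2 against 2 arrays allow with 6 splits. Gimap3 was singled out for this contrast after its values had been seen.

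Gimap4 encodes a protein reported to hasten death of T cells in mice. The probe that stands for the gene, at base 1565 of the transcript, gave 739 and 815 on the EnhDel arrays, against 555 and 711 on the control arrays. The groups were close but did not overlap, and the log2 difference was 0.31 ± 0.19 (SE, limma adjusted p = 0.623). Without EnhDel 2 that difference was 0.23, and it was 0.13 without control 1 and 0.48 without control 2. The other 2 probes of Gimap4 ran the same way. The probe at base 1060 gave 133 and 169 on the EnhDel arrays, against 106.5 and 111 on the control arrays, a log2 difference of 0.46 ± 0.19 (SE, limma adjusted p = 0.470). The probe at base 500 gave 43.6 and 58.7 on the EnhDel arrays, against 33.8 and 41.6 on the control arrays, a log2 difference of 0.43 ± 0.23 (SE, limma adjusted p = 0.566). The 3 probes thus had positive differences of like size, none past the test, and their errors overlapped.

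Gimap7 encodes a GTPase studied for its pairing with other GIMAP proteins in human cells, and Gimap8 a longer protein with repeated GTPase domains. Gimap7 gave 83.4 and 75.7 on the EnhDel arrays, against 44.1 and 68.4 on the control arrays. The control arrays were further apart from each other than control 2 was from the EnhDel arrays. The log2 difference of Gimap7 was 0.53 ± 0.26 (SE, 95% interval -0.17 to 1.24, limma adjusted p = 0.539), and it was 0.60 without EnhDel 2, 0.22 without control 1 and 0.85 without control 2. It depended on the processing, being 1.06 with normexp background correction, where it exceeded the 0.78 of Gimap3, 0.26 with normexp after repair of distorted local backgrounds, and 0.15 in the authors' deposited table. Gimap8 gave 550 and 431 on the EnhDel arrays, against 352 and 424 on the control arrays. EnhDel 2 and control 2 were almost level, and the log2 difference was 0.33 ± 0.21 (SE, limma adjusted p = 0.615). It was 0.51 without EnhDel 2, 0.16 without EnhDel 1 and 0.20 without control 1.

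Gimap1 and Gimap6 had groups that lay close together, on arrays that agreed closely with each other. Gimap1, which mature B and T cells of mice require, gave 4488 and 4517 on the EnhDel arrays, against 4350 and 4279 on the control arrays. Its log2 difference was 0.06 ± 0.14 (SE, limma adjusted p = 0.896), with a 95% interval of -0.33 to 0.45. Its sign turned under normexp background correction and under median scaling, to -0.19 and -0.14. With normexp after repair of distorted local backgrounds the difference was 0.015. Leaving out EnhDel 2 or control 1 gave 0.06 and 0.07. Gimap6, whose protein binds a partner of the autophagy machinery, gave 7288 and 7014 on the EnhDel arrays, against 8057 and 7393 on the control arrays. It was the only member whose EnhDel arrays both lay below the control arrays, by a log2 difference of -0.11 ± 0.15 (SE, limma adjusted p = 0.822). The 95% interval of Gimap6, -0.52 to 0.30, covers changes in either direction. Without EnhDel 2 the difference was -0.083, and without control 1 it was -0.048.

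Gimap9 was the only member whose groups overlapped. It gave 799 and 562 on the EnhDel arrays, against 790 and 701 on the control arrays. The 2 EnhDel arrays enclosed both control arrays, and the log2 difference was -0.15 ± 0.23 (SE, limma adjusted p = 0.841). Without EnhDel 2 it was 0.10, without EnhDel 1 -0.40 and without control 1 -0.064, so that its sign rests on EnhDel 2.

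The authors' deposited table holds 1 log2 value per gene and array, with 1 decimal. In the authors' deposited table, Gimap3 was listed at 9.6 and 9.6 on the EnhDel arrays, against 8.8 and 9 on the control arrays. Gimap7 was listed in the authors' deposited table at 7 and 6.7 on the EnhDel arrays, against 6.5 and 6.9 on the control arrays, so the groups overlapped there. Gimap9 was listed in the authors' deposited table at 9.7 and 9.2 on the EnhDel arrays, against 9.6 and 9.5 on the control arrays. The remaining 5 members differed by 0.3 or less between the group means of the authors' deposited table.

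The 8 genes form 1 cluster of 124 kb on chromosome 6. In the RefSeq table of build GRCm38.p6 their order is Gimap8, Gimap9, Gimap4, Gimap6, Gimap7, Gimap1, Gimap5 and Gimap3, from chr6:48647186 to chr6:48770851, with Gimap6 and Gimap3 on the minus strand. Differences did not change steadily along the cluster: positive and negative members alternated at its start, and the largest difference of the reported fit, that of Gimap3, lay at its far end. Beyond Gimap3, Tmem176b and Tmem176a, a pair of membrane protein genes of dendritic and myeloid cells, lay on the other side of zero. Tmem176a gave 436 and 439 on the EnhDel arrays, against 676 and 688 on the control arrays, a log2 difference of -0.64 ± 0.14 (SE, limma adjusted p = 0.30). Tmem176b gave 6394 and 5448 on the EnhDel arrays, against 10084 and 8566 on the control arrays, a log2 difference of -0.66 ± 0.18 (SE, limma adjusted p = 0.362). Both genes had lower signals on each EnhDel array than on each control array, and since the annotated genes overlap, which of them a probe reads is uncertain. Before Gimap8, the zinc finger gene Repin1 differed by -0.53 ± 0.30 (SE, limma adjusted p = 0.588) and Lrrc61 by 0.08 ± 0.17 (SE, limma adjusted p = 0.881). The Repin1 difference was -0.14 without EnhDel 2 and -0.92 without EnhDel 1, and Lrrc61 turned to -0.031 without EnhDel 2. Of the 8 neighbours listed, Zfp775, Aoc1, Rarres2 and Atp6v0e2 were not bright enough to be tested, and none of the 4 tested passed.

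**Figure D2:**
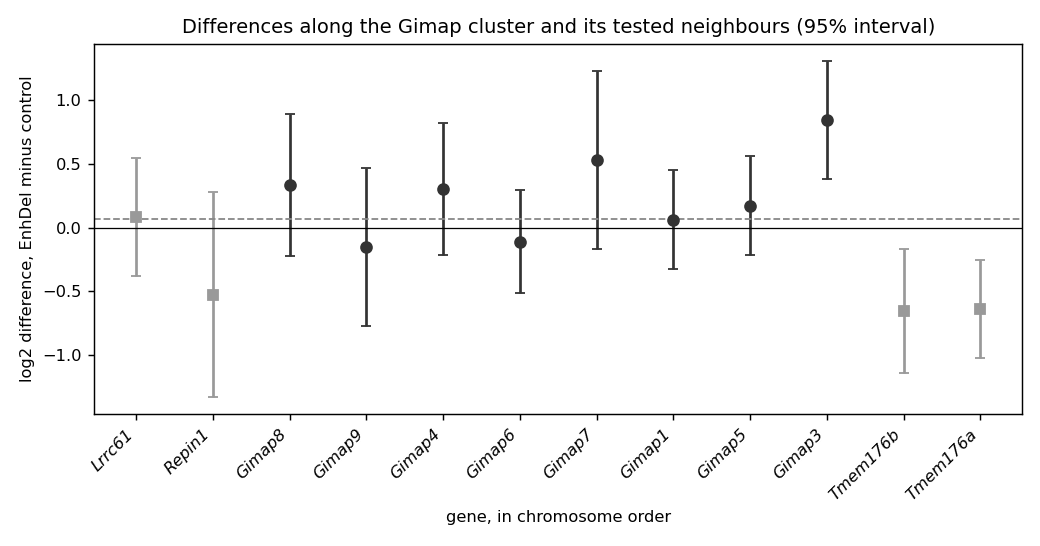
Log2 difference, EnhDel minus control, of the 8 Gimap genes (dark circles) and 4 tested neighbours (grey squares) in chromosome order, with the 95% interval of each; the dashed line is the median of all tested genes, 0.07. The interval of Gimap3 lies above 0 and those of Tmem176b and Tmem176a below it, while none of these genes passed the adjusted p; the intervals of the other 7 Gimap genes include 0.

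The bases before the start sites were read for the letters bound by factors of these lineages. The 250 bases before the start of Gimap3, the member with the largest difference in the reported fit, are shown with its match in capitals (RefSeq, GRCm38.p6, chr6:48770852-48771101, minus strand): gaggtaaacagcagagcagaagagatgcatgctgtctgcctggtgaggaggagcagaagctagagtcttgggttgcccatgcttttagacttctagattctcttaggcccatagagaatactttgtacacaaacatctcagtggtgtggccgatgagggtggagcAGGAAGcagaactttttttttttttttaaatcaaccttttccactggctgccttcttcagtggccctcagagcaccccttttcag
The same bases of Gimap4 are shown for comparison, since they hold more matches (RefSeq, GRCm38.p6, chr6:48684328-48684577, plus strand): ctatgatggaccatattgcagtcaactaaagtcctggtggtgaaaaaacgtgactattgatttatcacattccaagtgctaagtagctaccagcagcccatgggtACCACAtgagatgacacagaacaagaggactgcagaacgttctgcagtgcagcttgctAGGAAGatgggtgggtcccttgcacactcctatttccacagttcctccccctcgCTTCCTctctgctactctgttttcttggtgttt
The capitals mark AGGAAG, a core read by ETS factors, or TGTGGT, a core read by RUNX factors, on either strand; no matches overlapped. All 8 genes had an entry, and with 2 starts for Gimap8 there were 9 windows. AGGAAG was found in 7 of 9 Gimap windows and in 29.5% of all 32851 windows of the same length. TGTGGT was found in 3 of 9, those of Gimap4, Gimap7 and Gimap1, and in 14% of all windows. AGATAA, read by GATA factors, was found in 0 of 9 and in 9.99% of all windows. TTGCNNCAA, read by C/EBP factors, was found in 0 of 9 and in 1.74% of all windows. A match only describes the letters of these windows.

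Markers of the cell types that the sort could hold were read beside the Gimap genes. The counts of each list below stand beside those of all tested genes, of which 59.8% had a positive difference. At an unadjusted p under 0.05 in limma, 7.23% of all tested genes were higher and 3.96% lower. In bulk RNA, fewer cells of a type and less RNA per cell cannot be told apart. Of 20 T-cell markers, 19 were tested and Trat1 was not bright enough; 14 differences were positive and 5 negative, 9 of them higher and 1 lower at an unadjusted p under 0.05, and none passed the adjusted p. Their median difference was 0.65, and their summed scaled signal was 35995 and 41664 on the EnhDel arrays, against 25084 and 22337 on the control arrays. Most of that gap lay in Cd4, which plasmacytoid dendritic cells of mice also carry and which was singled out after its values were seen, with 15584 and 28013 on the EnhDel arrays, against 9075 and 8021 on the control arrays. The other 18 genes summed to 20411 and 13651 on the EnhDel arrays, against 16009 and 14315 on the control arrays, so the groups overlapped without Cd4, while the median was 0.58. Cd3g, a chain of the T-cell receptor complex, gave 128 and 129 on the EnhDel arrays, against 61.7 and 61.7 on the control arrays (log2 difference 1.06 ± 0.14, SE, limma adjusted p = 0.195). Cd3e, another chain of that complex, gave 643 and 738 on the EnhDel arrays, against 542 and 433 on the control arrays (limma adjusted p = 0.451). Factors of T-lineage commitment had wider gaps on dim probes: Gata3 differed by 2.26 ± 0.44 (SE, limma adjusted p = 0.256), Tcf7 by 2.18 ± 0.53 (SE, limma adjusted p = 0.321) and Bcl11b by 1.75 ± 0.26 (SE, limma adjusted p = 0.197). Gata3 gave 163 and 77.3 on the EnhDel arrays, against 19.0 and 29.1 on the control arrays. In the same order, Tcf7 gave 362 and 127, against 46.4 and 48.3, and Bcl11b 63.4 and 44.1, against 17.7 and 14.0. The lowest signal well above background was 14.7 on control 1 and 12.1 on control 2. Bcl11b on both control arrays and Gata3 on control 1 lay near it. In the authors' deposited table the same differences were smaller, at 1.0 for Gata3, 0.85 for Tcf7, 0.45 for Bcl11b and 0.50 for Cd3g. The 5 negative differences of the list were those of Cd6, at -0.67 ± 0.20 (SE, limma adjusted p = 0.378), Lck at -0.49, Thy1 at -0.36, Zap70 at -0.09 and Lat at -0.09. Cd6 was lower on each EnhDel array than on each control array. The median of the T-cell list was 0.43 without EnhDel 2, 0.67 without control 1 and 0.35 without control 2.

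Of 16 markers of NK and other innate lymphoid cells, 14 were tested, with 10 differences positive, 4 negative and none past the adjusted p. At an unadjusted p under 0.05, 4 were higher and 1 was lower. Their median difference was 0.62, and their summed scaled signal, 70304 and 54495 on the EnhDel arrays against 65853 and 53180 on the control arrays, overlapped between the groups. Most of each sum was Cd7, with 51019 and 39678 on the EnhDel arrays, against 47443 and 37122 on the control arrays. The median was 0.25 without EnhDel 1, 0.31 without control 2, 0.76 without EnhDel 2 and 0.68 without control 1. Gzmb, a killer-cell protease, was not well above background on either control array. With the reported scaling it was at least 9.91-fold higher in EnhDel cells (limma adjusted p = 0.183). That fold was taken against the lowest signal well above background on each array. The log2 difference of Gzmb was 4.73 in the reported fit, 2.45 with normexp background correction and 1.85 in the authors' deposited table. With normexp after repair of distorted local backgrounds it was 1.65, so the bound does not hold under every processing. Eomes, a transcription factor of NK cells, differed by 1.30 ± 0.17 (SE, limma adjusted p = 0.191), and Zbtb16, a factor of innate-like lymphocytes, by 1.49 ± 0.35 (SE, limma adjusted p = 0.309). In the authors' deposited table Eomes was at 0.35 and Zbtb16 at 1.0. Klrk1, an activating receptor, ran the other way at -1.24 ± 0.17 (SE, limma adjusted p = 0.196), and its sign turned to 0.55 under normexp background correction. With normexp after repair of distorted local backgrounds Klrk1 was at -0.47. The other negative differences of the list were those of Klrb1c at -0.57, Id2 at -0.44 and Klrd1 at -0.18. The defining NK receptor Ncr1 and also Klrb1b were not tested, being well above background on 1 EnhDel array each.

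Plasmacytoid dendritic cells also carry B220, and their markers were bright in both groups. All 11 were tested, 5 differences were positive and 6 negative, none had an unadjusted p under 0.05, and the median was -0.05. Summed over the list, the scaled signal was 1246230 and 1124280 on the EnhDel arrays, against 1251390 and 1144510 on the control arrays, so the groups overlapped, and the median was 0.083 without EnhDel 2 and 0.015 without control 1. Siglech, their defining surface lectin, gave 177212 and 169542 on the EnhDel arrays, against 172915 and 161915 on the control arrays (limma adjusted p = 0.917). Ccr9 differed by 0.42 ± 0.19, Klk1 by 0.76 ± 0.40, Clec10a by -0.26 ± 0.16 and Spib by 0.19 ± 0.16 (SE each, limma adjusted p between 0.504 and 0.721). Klk1 rested on EnhDel 2, being 0.21 without that array and 1.30 without EnhDel 1, and Spib turned to -0.018 under median scaling. None of these differences passed the test.

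Most early B-cell genes ran the other way from most Gimap genes. Of 16, 15 were tested and Pax5 was not bright enough; 4 differences were positive and 11 negative, with 1 higher and 10 lower at an unadjusted p under 0.05, none past the adjusted p, and a median of -1.02. The list summed to a scaled signal of 176041 and 138979 on the EnhDel arrays, against 179320 and 181687 on the control arrays. Blnk and Dntt made up most of each sum. The median was -0.81 without EnhDel 2 and -1.27 without control 1. Ebf1, the factor that specifies B cells, differed by -2.34 ± 0.53 (SE, limma adjusted p = 0.301), Igll1, of the surrogate light chain, by -3.40 ± 0.86 (SE, limma adjusted p = 0.326), and the antigen receptor chain gene Cd79a by -0.79 ± 0.20 (SE, limma adjusted p = 0.322). All 3 were lower on each EnhDel array than on each control array, and Igll1 was at -2.21 without EnhDel 2. The 4 positive differences were those of Ms4a1, at 0.62 ± 0.20 (SE, limma adjusted p = 0.401), Il7r at 0.16, Dntt at 0.13 and Blnk at 0.08. Ms4a1 was higher on each EnhDel array than on each control array.

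Of 10 myeloid genes, 9 were tested, 1 difference was positive and 8 were negative, 3 of them lower at an unadjusted p under 0.05, and the median was -2.44. Together they gave a scaled signal of 8968 and 24620 on the EnhDel arrays, against 32226 and 34611 on the control arrays, so EnhDel 1 held least. Without EnhDel 2 the median was -3.72, and without control 1 it was -2.59; without EnhDel 1 it was -1.002. Lyz2, a macrophage and neutrophil lysozyme, was not well above background on either EnhDel array and was at least 7.65-fold lower in EnhDel cells (limma adjusted p = 0.195), though its sign turned under normexp background correction. With normexp after repair of distorted local backgrounds Lyz2 was at -0.99. Csf1r, the receptor of macrophage growth factor, differed by -1.63 ± 0.39 (SE, limma adjusted p = 0.310), Elane by -1.05 ± 0.34 (SE, limma adjusted p = 0.407) and Cebpe by -3.41 ± 1.28 (SE, limma adjusted p = 0.449). Csf1r was at -0.51 with the mean of its probes and at -0.45 in the authors' deposited table. Without EnhDel 1 Cebpe was at -1.54 and Elane at -0.59. Cebpe was at -0.18 with normexp and at -1.41 with normexp after repair of distorted local backgrounds. The positive difference of the list was that of Itgam, at 0.23. None of the myeloid genes passed the adjusted p. The part of these T-cell, innate lymphoid, B-cell and myeloid signals in the Gimap values was not tested.

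**Figure D3:**
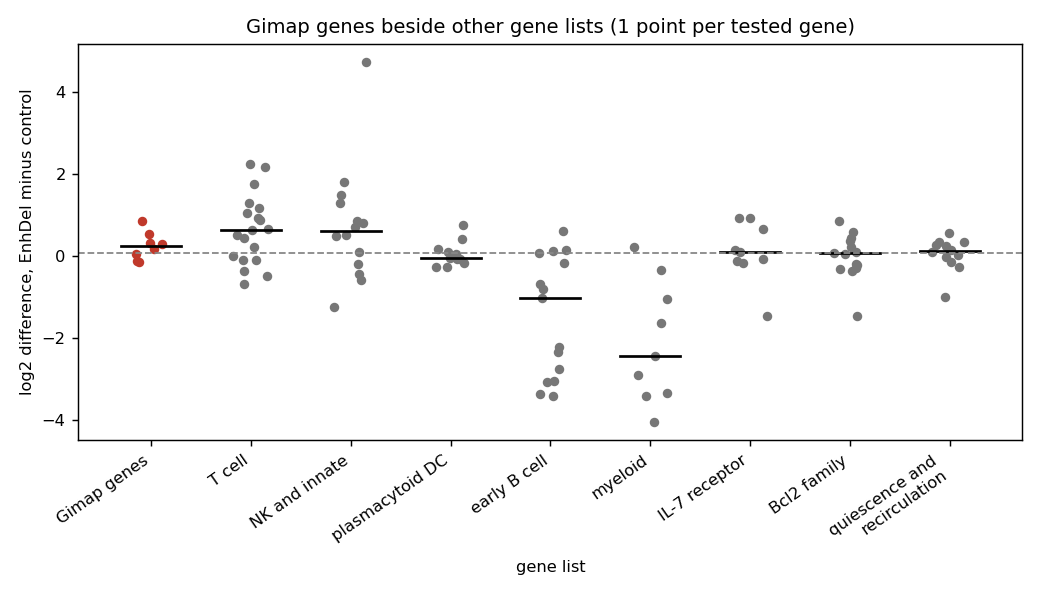
Log2 difference, EnhDel minus control, of each tested gene (1 point) in the Gimap family (red) and 8 other gene lists (grey); black bars are list medians and the dashed line is the median of all tested genes. The Gimap points lie between -0.15 and 0.85, while the early B-cell and myeloid lists reach far below 0 and the T-cell list and 1 NK gene reach above 2; the fitted value of the highest NK point, Gzmb, rests on control arrays near background.

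The genes that Gimap proteins are studied with were also read. Signals through the IL-7 receptor maintain lymphocytes, and of 9 genes of that pathway 5 differences were positive and 4 negative, with 2 higher and 1 lower at an unadjusted p under 0.05 and a median of 0.09, which turned to -0.11 under median scaling and to -0.046 without EnhDel 1. Summed, they gave a scaled signal of 40148 and 36450 on the EnhDel arrays, against 35931 and 35633 on the control arrays. Il7r, the receptor itself, gave 10688 and 9581 on the EnhDel arrays, against 8813 and 9303 on the control arrays, a log2 difference of 0.16 ± 0.16 (SE, limma adjusted p = 0.745). Socs1, an inhibitor of the pathway, differed by 0.93 ± 0.24 (SE, limma adjusted p = 0.332), Il2rg, the shared receptor chain, by 0.94 ± 0.38 (SE, limma adjusted p = 0.469), and its kinase Jak3 by 0.66 ± 0.19 (SE, limma adjusted p = 0.380). Il2rg was at 0.46 without EnhDel 2. Il7r, Socs1, Il2rg and Jak3 had higher signals on both EnhDel arrays. The 4 negative differences were those of Bcl2, at -1.45 ± 0.47 (SE, limma adjusted p = 0.407), Stat5b at -0.15, Stat5a at -0.11 and Cish at -0.06. No gene of the list passed the test.

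Of 17 Bcl2-family genes, 14 were tested, with 8 differences positive, 6 negative and a median of 0.07, which turned to -0.13 under median scaling; at an unadjusted p under 0.05, 1 was higher and 1 lower. The scaled signal of the list summed to 55702 and 53675 on the EnhDel arrays, against 53313 and 50748 on the control arrays. Bcl2, the survival protein reported to bind Gimap proteins, gave 896 and 356 on the EnhDel arrays, against 1539 and 1540 on the control arrays. Its difference of -1.45 ± 0.47 (SE, limma adjusted p = 0.407) ran opposite to that of Gimap3, and its 2 EnhDel arrays lay far apart; without EnhDel 2 it was -0.78. Bcl2l1, a survival gene, differed by -0.32 ± 0.15 (SE, limma adjusted p = 0.530) and Pmaip1, a death gene, by 0.86 ± 0.38 (SE, limma adjusted p = 0.499). Bcl2l1 turned to 0.040 with the mean of its probes, and Pmaip1 was at 0.34 without EnhDel 1 and 1.38 without EnhDel 2. Bik, another death gene, was not well above background on the control arrays and was at least 1.16-fold higher in EnhDel cells (limma adjusted p = 0.434), a difference that was -0.05 in the authors' deposited table.

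Of 12 genes of lymphocyte quiescence and recirculation, 8 differences were positive and 4 negative, with a median of 0.14, and at an unadjusted p under 0.05, 1 was higher and 1 lower. The median turned to -0.068 under median scaling. Their summed scaled signal was 236544 and 202528 on the EnhDel arrays, against 214369 and 204553 on the control arrays, which overlapped. S1pr1, the receptor that lets lymphocytes leave tissues, gave 131 and 133 on the EnhDel arrays, against 79.1 and 99.8 on the control arrays (log2 difference 0.57 ± 0.18, SE, limma adjusted p = 0.400). Klf2, the factor that drives S1pr1, differed by 0.27 ± 0.17 (SE, limma adjusted p = 0.627), Itga4, an integrin chain, by 0.36 ± 0.21 (SE, limma adjusted p = 0.598) and Cd27, a costimulatory receptor, by -0.99 ± 0.24 (SE, limma adjusted p = 0.322). Itga4 was at 0.14 and Klf2 at 0.16 without EnhDel 1. The signs of Cd27 and Klf2 turned under normexp background correction. With normexp after repair of distorted local backgrounds they did not, and the differences were -0.58 and 0.26. No gene of the list passed the adjusted p.

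Among 10 transcription factors of lymphoid lineages, which include the Gata3 and Tcf7 given above, 3 differences were positive and 7 negative, with 2 higher and 2 lower at an unadjusted p under 0.05 and a median of -0.11, which was 0.033 without EnhDel 2. Their summed scaled signal was 13731 and 9563 on the EnhDel arrays, against 14456 and 14350 on the control arrays. Runx1 gave 769 and 836 on the EnhDel arrays, against 1404 and 1485 on the control arrays, a log2 difference of -0.85 ± 0.15 (SE, limma adjusted p = 0.234). Lef1, a factor of early lymphocytes, differed by -2.30 ± 0.65 (SE, limma adjusted p = 0.365), or -1.42 without EnhDel 2. Of the 7 genes of the sort gate, 6 were tested, 1 difference was positive and 5 were negative, 3 of them lower at an unadjusted p under 0.05, and the median was -0.69. Their summed scaled signal was 58538 and 57736 on the EnhDel arrays, against 67805 and 67441 on the control arrays. In that list, Kit differed by -0.77 ± 0.15 (SE, limma adjusted p = 0.246), Flt3 by -0.61 ± 0.16 (SE, limma adjusted p = 0.341) and Cd24a by -0.82 ± 0.47 (SE, limma adjusted p = 0.591). Cd24a was at -0.17 without EnhDel 2 and -1.48 without EnhDel 1, so EnhDel 2 carried it, and Flt3 was at -0.28 with the mean of its probes. The median of the gate list was -0.38 without EnhDel 2. No tested gene of either list passed the adjusted p, and some genes stand in more than 1 list.

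The profile of the family over the 4 arrays was nearly flat. The mean of the 8 members, each centred on its own mean over the arrays, was 0.18 on EnhDel 1 and 0.07 on EnhDel 2, against -0.20 on control 1 and -0.05 on control 2, on the log2 scale. Gimap5 lay nearest to that mean profile, at a root mean square distance of 0.06, and Gimap3 farthest, at 0.31. Among 18202 other genes well above background on all 4 arrays, AI987944, Atpaf1, Dppa2 and Prpf39 were among the nearest, at distances between 0.0085 and 0.013. Of those 18202 genes, 72.4% lay nearer to the mean profile than Gimap3 did, 64.5% nearer than Gimap9, 49.65% nearer than Gimap7 and 43.8% nearer than Gimap6. For the remaining members the share was between 1.20% and 11.1%, although the members themselves make up that mean. With 4 arrays and a profile this flat, many genes lie close to it, and the likeness is a description only.

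**Figure D4:**
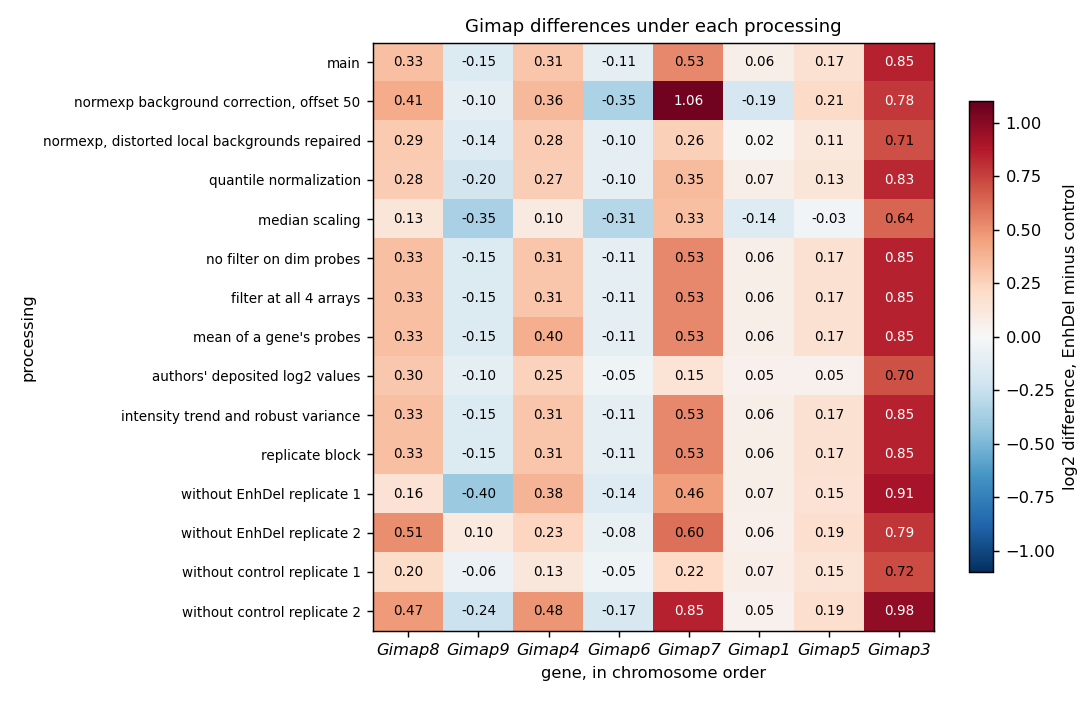
Log2 difference, EnhDel minus control, of each Gimap gene (columns, in chromosome order) under the processing reported here (top row) and 14 alternatives (rows below); red is higher in EnhDel cells and blue lower. Gimap3 is positive in every row, from 0.64 to 0.98, Gimap6 is negative in every row, and Gimap1, Gimap5 and Gimap9 change sign in at least 1 row.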

How the data were processed

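The authors deposited 1 Agilent scanner file per array. Per the file headers it was made with Feature Extraction 10.7.3.1 and holds the intensity of each spot with its background flags, positions being in mm9. The authors' deposited table of 31597 rows is on a log2 scale, and each of its columns has a median of 6.5; its further normalization is not given in the sources used here.

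Here the processed intensity was taken to log2 and each array's 75th percentile was subtracted. Scaled signal means that value put back on a linear scale with a common 75th percentile of 976, and differences are EnhDel minus control in log2 units. Control and outlier spots were dropped (126 to 162 outliers per array). Symbols were updated by accession through RefSeq (GRCm38.p6): 26581 of 39429 probes matched and 2892 changed name. A gene was its brightest probe, tested if the 2 arrays of either group read it well above background, leaving 19394 genes. limma 3.58.1 (R 4.3.3) fitted all of them together, with Benjamini-Hochberg adjustment at 0.05. At that threshold 0 genes passed, while 2171 had an unadjusted p under 0.05; the smallest adjusted p was 0.0505. The number of arrays limits the precision: log2 differences between the 2 EnhDel arrays had an SD of 0.61, against 0.33 between the 2 control arrays.

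The genes named are all Gimap genes and their neighbours, Cebpa, sex-linked genes, up to 4 genes of each list by p, defining markers, and the 5 genes nearest in profile; some genes that this rule takes are not reported here. The members and lists were chosen with earlier results of these data known, and the T-cell list without Cd4 was added after seeing the data.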

Additional observations from a re-analysis of the deposited data

How the results depend on the processing

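Over 14 alternatives, no Gimap gene passed the adjusted p of 0.05; the lowest was 0.0502, for Gimap3 without EnhDel 1 (limma). The Gimap median of 0.24 was 0.034 under median scaling, which moved the median of all genes to -0.13, so that the family stood 0.17 above it, and 0.10 in the authors' deposited table. With each array left out in turn it ranged from 0.14 (without control 1) to 0.33 (without control 2). The number of all genes past the adjusted p was 0 in the reported fit, 23 under median scaling and 2 with the mean of a gene's probes. With 1 array left out it ranged from 1 (without control 1) to 2938 (without EnhDel 1), with 47 without EnhDel 2 and 6 without control 2; the lone array of a group was then assumed to vary like the other group. The replicate number as a block left the Gimap median at 0.24 and called 0 Gimap genes and 0 genes in all, with an adjusted p of 0.376 for Gimap3. Deviations of same-numbered arrays correlated at -0.024, and the samples share only a number.

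Of 881 values of named genes and list medians under the alternatives, 35 turned sign. With normexp background correction, which moved the median of all genes to 0.19, Gimap1 was at -0.19, Klrk1 at 0.55, Lyz2 at 0.21, Cd27 at 0.23, Klf2 at -0.024, Il7r at -0.15, Lrrc61 at -0.035, Spib at -0.12 and Siglech at -0.28. List medians under that correction were -0.089 for quiescence, -0.15 for the IL-7 receptor, -0.11 for the Bcl2 family and 0.011 for transcription factors, all of opposite sign, and -0.28 for plasmacytoid dendritic cells, -0.57 for early B cells, -0.43 for myeloid genes, -0.49 for the sort gate and -0.43 for the neighbours. Local background exceeded 5 times the array's median at 6 spots, all of them on EnhDel 1. With these distorted local backgrounds repaired, normexp put the median of all genes at 0.057. Each gene and list median given above with opposite sign then had the sign of the reported fit. The repaired normexp gave 0.42 for T cells and -0.63 for the sort gate.

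With median scaling, Gimap1 was at -0.14, Gimap5 at -0.033, Il7r at -0.043, Lrrc61 at -0.12, Spib at -0.018 and Siglech at -0.15. The list medians were then -0.068 for quiescence, -0.11 for the IL-7 receptor, -0.13 for the Bcl2 family, 0.45 for T cells, -0.25 for plasmacytoid dendritic cells, -0.89 for the sort gate and -0.79 for the neighbours. Quantile normalization gave medians of 0.47 for T cells and 0.061 for plasmacytoid dendritic cells. With no filter on dim probes the sort gate was at -0.77 and the neighbours at -0.091. With the mean of a gene's probes Bcl2l1 was at 0.040 and the sort gate at -0.53. The authors' deposited table gave Bik at -0.05 and medians of 0.35 for T cells, 0.05 for plasmacytoid dendritic cells, -0.65 for early B cells and -0.55 for the sort gate.

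With single arrays left out, Gimap9 ranged from -0.40 to 0.10 and Lrrc61 from -0.031 to 0.20. List medians ranged from 0.35 to 0.67 for T cells, 0.25 to 0.76 for NK and innate lymphoid cells, -0.053 to 0.083 for plasmacytoid dendritic cells, -3.72 to -1.002 for myeloid genes, -0.046 to 0.24 for the IL-7 receptor, -0.056 to 0.11 for the Bcl2 family, -0.70 to -0.38 for the sort gate, -0.42 to 0.033 for transcription factors and -0.70 to -0.34 for the neighbours. The causes were not tested. Another 26 values passed the threshold, 23 of them without EnhDel 1; none was a Gimap gene.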
